A study of Mus musculus with 4 samples.

Results

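Peaks of 3 RNA-binding proteins were examined in 10 mouse genes of glycolysis, taken as the peaks whose summit lay inside the GENCODE M21 gene body (build GRCm38). The genes are Slc2a1, Hk2, Pfkp, Pfkl, Pfkfb3, Aldoa, Tpi1, Eno1, Pkm and Ldha, out of 22028 protein-coding genes of the annotation. They were chosen with earlier results of these data known. All 10 had at least 1 peak, and together they held 64 of the peaks: 19 of 7069 for IGF2BP2, 13 of 2834 for YTHDF2 and 32 of 9963 for YTHDC1. The share of all protein-coding genes with a peak of any reader was not computed, and shares by reader are given below. The cells were lin-ckit+ bone marrow cells, which the labels call LIC and the series title links to acute myeloid leukaemia stem cells. They were grown with interleukin 3, interleukin 6 and stem cell factor and crosslinked with ultraviolet light. One library was made with an antibody to each of IGF2BP2, YTHDF2 and YTHDC1, and 1 library without antibody as input. The labels used here give no genotype, age or number of animals. Since each reader has 1 library, differences between readers were not tested and lack a replicate.

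Glycolysis turns glucose into pyruvate in the cytosol and yields ATP and building blocks. Dividing blood progenitors and leukaemia cells are known for turning much of that pyruvate into lactate. Methylated adenosine (m6A) in RNA is bound by reader proteins. Among them IGF2BP2 is known to stabilise transcripts, YTHDF2 to speed their decay, and YTHDC1, a nuclear protein, to act in splicing and export.

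The lists hold, as the authors' own values, the pileup at the summit (the number of stacked fragments), its fold over local background and a −log10 q. Whole lists had median pileups of 5 (IGF2BP2), 5 (YTHDF2) and 6 (YTHDC1). With a pseudocount of 1 in the fold, the local background computed at the members' summits was at most 0.329 fragments, so the fold followed the pileup closely. Of the marker genes of other cell types, 0 of 7 lymphoid genes had a peak. Of 5 erythroid genes Tfrc had 1, and of 4 stromal and endothelial genes Col1a2 and Pecam1 had peaks, all of YTHDC1, with a pileup of up to 38 in Pecam1. Of 8 granulocyte and monocyte genes 4 had peaks (Prtn3, Ctsg, Itgam and Csf1r), with a pileup of up to 18 in Prtn3, and of 7 progenitor genes 4 had peaks. Kit, which defines the sorted fraction, had 1 YTHDC1 peak with a pileup of 4, and Myb had peaks of all 3 readers. Over all protein-coding genes, 12.8% had a peak of IGF2BP2, 7.26% of YTHDF2 and 19.9% of YTHDC1. Against these shares the marker sets are small, and the cell type was not tested with them. A gene without a peak may still be expressed, and RNA levels are not in the files used here.

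Glycolysis genes had peaks of each reader, and the share of members is set beside that of all protein-coding genes. IGF2BP2 peaks lay in 8 of the 10, against 12.8% of all protein-coding genes. YTHDF2 peaks lay in 4 of the 10, against 7.26%, and YTHDC1 peaks in 10 of the 10, against 19.9%. Pkm, Ldha, Eno1 and Pfkl had peaks of all 3 readers, against 5.1% of protein-coding genes. Hk2 and Tpi1 were in the YTHDC1 list alone, and Slc2a1, Pfkp, Pfkfb3 and Aldoa lacked a YTHDF2 peak. Expression and gene length were not matched in these shares. The members were chosen with earlier results of these data known, so their shares may be high through that choice. Of 25 other glycolysis genes, 18 had no peak of any reader, a count for which the share over all protein-coding genes was not computed. The member counts rest on weak peaks in part. At a fold of at least 5, 3 members remained for IGF2BP2 (Pkm, Ldha and Pfkfb3), 2 for YTHDF2 (Pkm and Ldha) and 7 for YTHDC1. The share of all protein-coding genes at that fold was not computed, and the shares above do not apply to it.

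**Figure D1:**
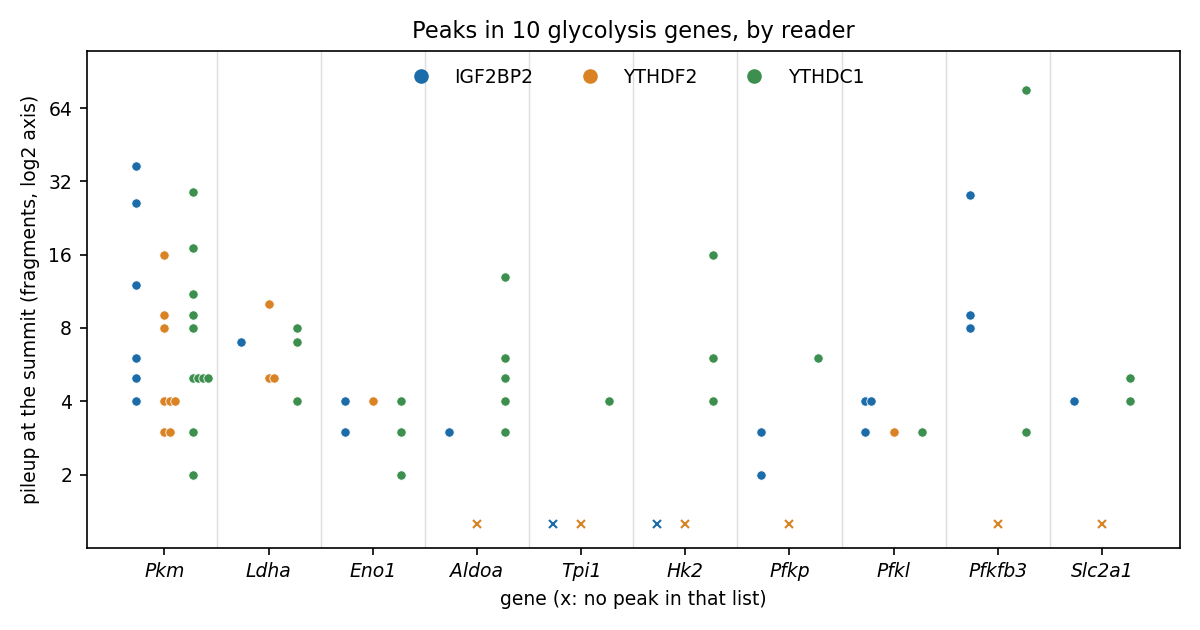
Pileup at the summit (fragments, log2 axis) of each of the 64 peaks in the 10 genes, 1 point per peak, coloured by reader; a cross marks a gene with no peak in that list. Pkm and Pfkfb3 hold the peaks above 16 fragments, and most other points lie at 8 or below.

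Signal was concentrated in a few genes. Pkm alone held 25 of the 64 peaks (39.1%), and the other 9 genes shared 39. Of the 64 peaks, 39 had a pileup of at most 5, and 12 had one of 10 or more. The strongest peaks per reader were Pfkfb3 for YTHDC1 (pileup 76), Pkm for IGF2BP2 (37) and Pkm for YTHDF2 (16). Median pileups of the members were 4 (IGF2BP2), 4 (YTHDF2) and 5 (YTHDC1) with Pkm, and 4, 5 and 4 without it. Both sets were under or at the medians of the whole lists.

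At the entry of the pathway, Slc2a1 and Hk2 had few peaks. Slc2a1 (ENSMUSG00000028645.11, chr4:119108711-119137983, plus strand) encodes the glucose transporter GLUT1. IGF2BP2 and YTHDC1 peaks coincided in its exon 6 of 10, in coding sequence of the main transcript and in a 3' UTR of another, with summits 8 bp apart. Pileups there were 4 for IGF2BP2 and 4 for YTHDC1, with folds of 4.93 and 4.91. A second YTHDC1 peak, with a pileup of 5, had its summit in intron 1, 0.542 kb from the gene start. Hk2 (ENSMUSG00000000628.10, chr6:82725025-82774454, minus strand) encodes hexokinase 2, which traps glucose as its phosphate. Its 3 peaks were all of YTHDC1. The strongest, chr6:82726874-82727011, lay in the 3' UTR, 360 nt past the stop codon, and had a pileup of 16 (fold 16.7, −log10 q 39.2). The others were weaker, with pileups of 6 in exon 10 of 18 and 4 in intron 13. IGF2BP2 and YTHDF2 had no peak anywhere in Hk2.

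At the committed step, the phosphofructokinase genes Pfkp and Pfkl had weak peaks. They encode the platelet and liver forms of the enzyme. In Pfkp (ENSMUSG00000021196.14, chr13:6579768-6648777, minus strand) IGF2BP2 had a pileup of 2 in exon 7 of 22 and of 3 in intron 14, and YTHDC1 one of 6 in intron 1, 0.36 kb from the gene start. None of these overlapped a peak of another reader. In Pfkl (ENSMUSG00000020277.10, chr10:77986947-78010083, minus strand) the 3 readers met at exons 20 and 21 of 22, within chr10:77988703-77988911. Pileups there were 4 for IGF2BP2, 3 for YTHDF2 and 3 for YTHDC1, and the summits spread over 169 bp, from exon 20 across the short intron into exon 21. IGF2BP2 had 2 further peaks in Pfkl, with pileups of 4 in exon 7 and 3 in exon 10.

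Pfkfb3 (ENSMUSG00000026773.19, chr2:11471433-11554077, minus strand) makes the sugar bisphosphate that activates phosphofructokinase. It had the strongest peak of the 10 genes, in the first intron of its longest complete coding transcript. YTHDC1 reached a pileup of 76 (fold 57.9, −log10 q 144) at chr2:11547477-11547671. IGF2BP2 reached 28 (fold 25.8, −log10 q 52.5) at chr2:11547481-11547631. These summits lay 24 bp apart, and the YTHDC1 peak was 6156 bp from the nearest annotated exon. The YTHDF2 list had no peak in Pfkfb3. Whether reads at this intron map to several places was not tested.

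**Figure D2:**
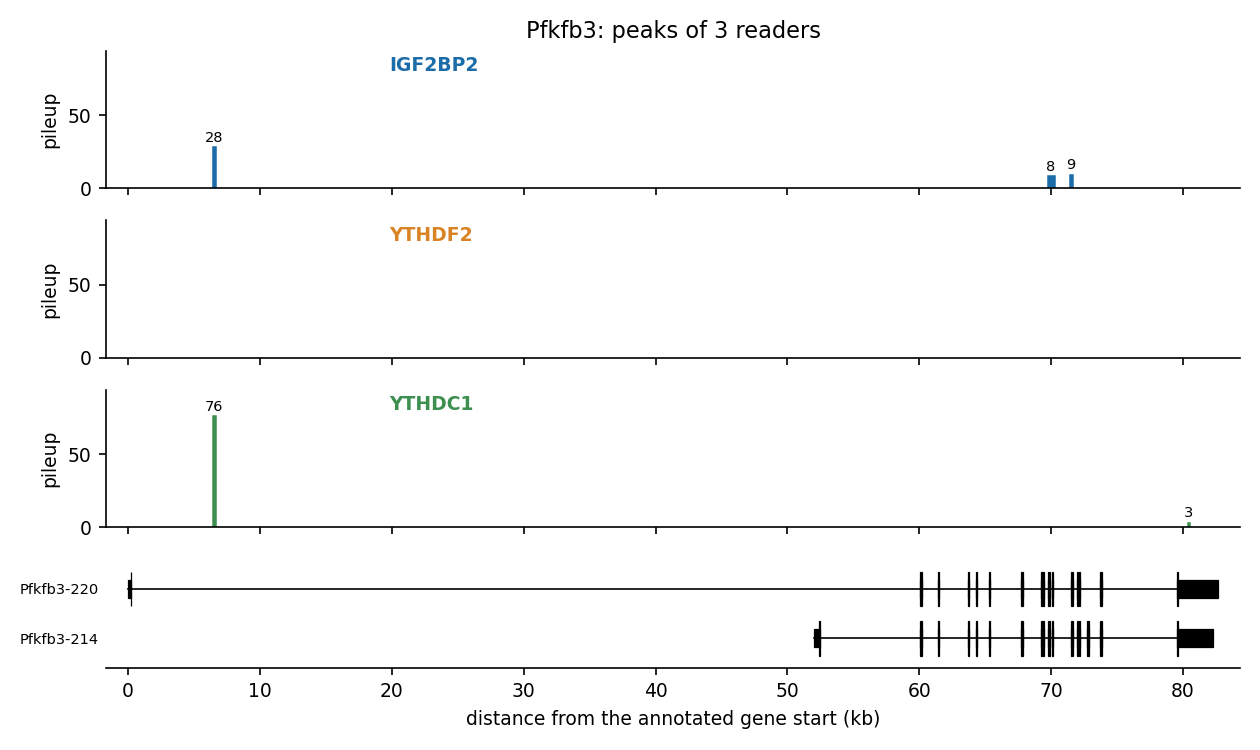
Pileup (fragments) of the peaks of each reader along Pfkfb3 against distance from the annotated gene start (kb), with 1 bar at each peak, drawn wider than the peak for visibility, and exons of 2 transcripts below (tall boxes are coding). The intronic peak at 6.5 kb reaches 76 for YTHDC1 and 28 for IGF2BP2, and IGF2BP2 alone has peaks in the coding exons, of 8 and 9.

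In the coding exons of Pfkfb3 only the IGF2BP2 list had peaks. Its peaks in exons 10 and 11 of 15 had pileups of 8 and 9, folds of 8.88 and 9.86 and −log10 q values of 18.0 and 20.8. Their folds ranked at percentile 74.8 and 79.8 of the IGF2BP2 list. YTHDC1 had a further peak in the 3' UTR with a pileup of 3. The exon 10 window is shown since it holds the m6A core GGAC near a summit in a gene with few peaks; the part in exon 10 is given on the strand of the gene, chr2:11483937-11484033, with GGAC in capitals:
Pfkfb3 exon 10: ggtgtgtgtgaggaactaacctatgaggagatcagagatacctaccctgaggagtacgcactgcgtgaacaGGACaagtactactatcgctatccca
This GGAC starts 25 bases after the summit.

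In the middle of the pathway, Aldoa and Tpi1 were mainly in the YTHDC1 list. Aldoa (ENSMUSG00000030695.16, chr7:126795234-126800751, minus strand) encodes aldolase A, which splits the sugar bisphosphate. A second annotated gene with this symbol had no peak. In the first gene YTHDC1 had 5 peaks, with pileups of 4, 3, 5, 6 and 13 from its 5' to its 3' end. The strongest lay in exon 9 of 10 at chr7:126795579-126795765, at a fold of 12.0 (−log10 q 17.8). IGF2BP2 had 1 peak, in exon 4, with a pileup of 3. It overlapped the second YTHDC1 peak, but the summits lay 210 bp apart. The first YTHDC1 summit also lay in Fam57b on the other strand, and the lists give no strand. The window at the exon 9 summit holds no GGAC and is shown for contrast (chr7:126795648-126795748):
Aldoa exon 9: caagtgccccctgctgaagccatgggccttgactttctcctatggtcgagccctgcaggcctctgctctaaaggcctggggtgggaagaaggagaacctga
Tpi1 (ENSMUSG00000023456.15, chr6:124810586-124814296, minus strand) encodes triose phosphate isomerase. It had a single peak, of YTHDC1, in exon 4 of 7, with a pileup of 4 (fold 4.29, −log10 q 2.73); the smallest −log10 q of that list was 2.02.

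Eno1 (ENSMUSG00000063524.13, chr4:150236721-150248879, plus strand) encodes enolase 1. It had 6 peaks, none with a pileup above 4. IGF2BP2 had pileups of 4 in exon 2 of 12 and 3 beside exon 3, YTHDF2 one of 4 in exon 9, and YTHDC1 4 in exon 3, 2 beside exon 9 and 3 in intron 10. Peaks of IGF2BP2 and YTHDC1 overlapped at exon 3, with summits 42 bp apart, and peaks of YTHDF2 and YTHDC1 at exon 9, with summits 92 bp apart. In all 3 Eno1 windows with an exonic summit, 100% of the runs of 50 bases also occur in transcripts of other genes. The assignment of these peaks to Eno1 is uncertain.

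Pkm (ENSMUSG00000032294.17, chr9:59656368-59679375, plus strand) encodes pyruvate kinase, the enzyme of the last step, and held the most peaks of the 10 genes. It had 6 IGF2BP2, 8 YTHDF2 and 11 YTHDC1 peaks. As many or more peaks were found in 191 of the 2815 genes of the IGF2BP2 list, 17 of the 1599 of the YTHDF2 list and 36 of the 4387 of the YTHDC1 list, Pkm included. Joined where they overlap, the 25 peaks formed 13 sites, of which 4 had all 3 readers, 4 had 2 and 5 had 1. Of all 42 sites in the 10 genes, 5 had all 3 readers, 12 had 2 and 25 had 1.

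The 2 strongest Pkm sites lay in neighbouring coding exons and ranked the readers differently. At exon 5 of 11 (chr9:59668863-59669190), IGF2BP2 had a pileup of 37 (fold 36.7, −log10 q 93.8). YTHDF2 and YTHDC1 had pileups of 9 and 9 there, with folds of 9.12 and 8.59, and the YTHDC1 summit lay 10 bp into intron 5. At exon 6 (chr9:59670376-59670745), pileups were 26 (IGF2BP2), 16 (YTHDF2) and 29 (YTHDC1), with folds of 24.1, 15.5 and 25.8 and summits within 12 bp. IGF2BP2 thus stacked more fragments on exon 5 than on exon 6, while YTHDF2 and YTHDC1 stacked more on exon 6. Exon 4 carried an IGF2BP2 peak alone (pileup 12, fold 12.5), with its summit at the last base of the exon and its end in the next intron. Exon 7 carried peaks of YTHDF2 (8) and YTHDC1 (17) without IGF2BP2. The windows at exon 6 share 82.7% to 100% of their 50 base runs with transcripts of other genes. At exon 5 the IGF2BP2 window shares 32.7% and the YTHDF2 window 65.4%, and the intronic YTHDC1 summit was not checked. The windows at the strongest summits are printed with GGAC in capitals, cut to the exon, at chr9:59668630-59668680, chr9:59668962-59669062, chr9:59670518-59670618 and chr9:59671584-59671684, since GGAC occurs in those of exons 4 to 6 and not in that of exon 7:
Pkm exon 4: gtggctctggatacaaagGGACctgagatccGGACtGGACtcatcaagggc
Pkm exon 5: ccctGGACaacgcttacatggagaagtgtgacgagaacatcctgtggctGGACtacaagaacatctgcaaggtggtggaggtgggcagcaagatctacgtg
Pkm exon 6: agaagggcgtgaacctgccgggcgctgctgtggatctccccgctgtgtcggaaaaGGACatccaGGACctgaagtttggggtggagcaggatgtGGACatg
Pkm exon 7: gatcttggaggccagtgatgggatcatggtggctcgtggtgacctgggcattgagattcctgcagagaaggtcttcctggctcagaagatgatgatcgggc
The exon 5 window has 2 GGAC, of which the nearer starts 1 base before the IGF2BP2 summit, and the exon 6 window has 3, which start 5, 14 and 44 bases after the YTHDC1 summit. Upstream of these exons the sites were weaker: YTHDC1 had a pileup of 5 in intron 1, YTHDF2 one of 3 in exon 3, and both had 3 in intron 3. At exon 8 YTHDF2 had a pileup of 4 and YTHDC1 one of 2, its lowest in the gene.

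**Figure D3:**
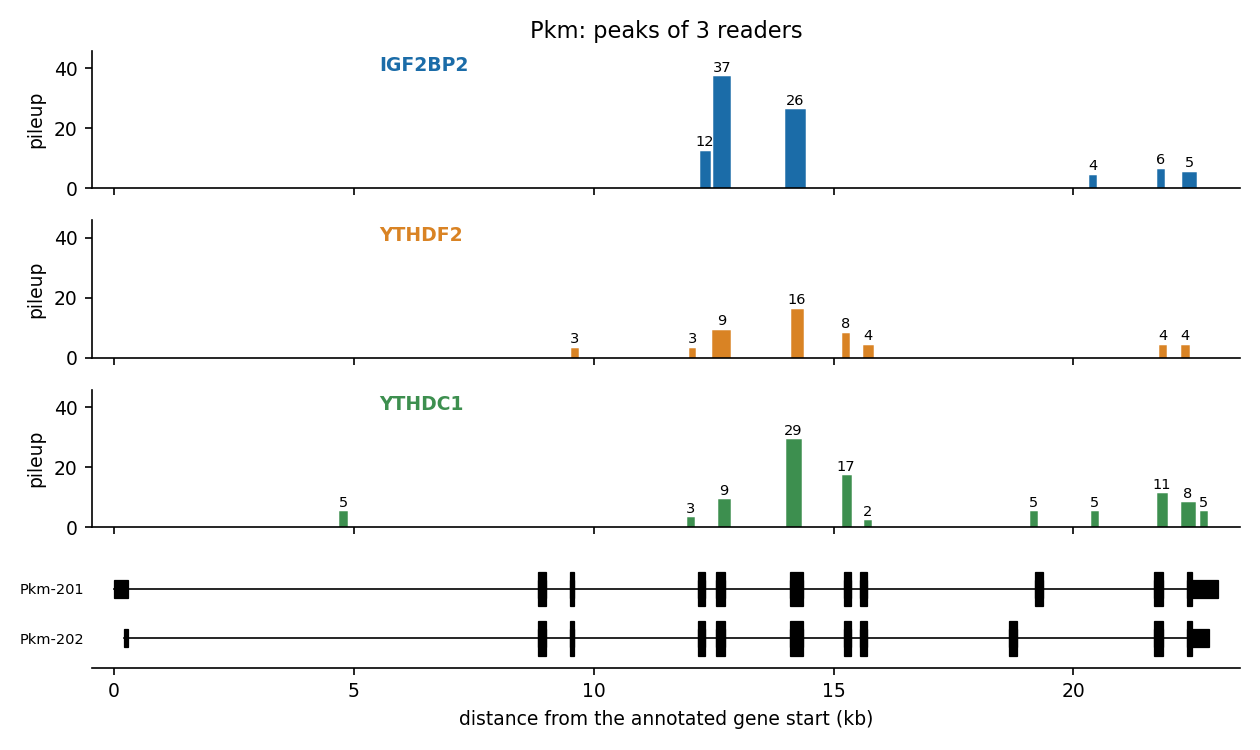
Pileup (fragments) of the peaks of each reader along Pkm against distance from the annotated gene start (kb), with 1 bar at each peak, drawn wider than the peak for visibility, and exons of Pkm-201 and Pkm-202 below (tall boxes are coding). The highest bars stand over exon 5 (37 for IGF2BP2) and exon 6 (26, 16 and 29), and the transcripts differ in their ninth exon, where Pkm-201 has a YTHDC1 peak of 5.

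Pkm is known for a pair of mutually exclusive exons, the upstream one giving PKM1 and the downstream one PKM2, the form of most dividing cells. In the annotation they are exon 9 of Pkm-202 (chr9:59675029-59675195) and exon 9 of Pkm-201 (chr9:59675568-59675734), each of 167 bases, with 103 identical (61.7%). The upstream exon had 0 peaks. At the downstream exon YTHDC1 had a peak with a pileup of 5 (fold 5.15, −log10 q 4.18) at chr9:59675481-59675593. Its summit lay in the intron, 16 bp before the exon, and the peak covered the first 26 bases of the exon. IGF2BP2 and YTHDF2 had no peak at either exon. The exons are printed to show where the peak ends, with the bases under it in capitals:
Pkm-202 exon 9: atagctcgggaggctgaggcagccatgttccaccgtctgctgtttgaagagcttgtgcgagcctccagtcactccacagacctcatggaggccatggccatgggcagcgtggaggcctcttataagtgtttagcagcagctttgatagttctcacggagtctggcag
Pkm-201 exon 9: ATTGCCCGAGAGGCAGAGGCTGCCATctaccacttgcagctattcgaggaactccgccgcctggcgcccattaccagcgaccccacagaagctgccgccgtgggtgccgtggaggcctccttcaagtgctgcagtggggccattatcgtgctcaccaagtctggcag
With a −log10 q minimum of 5, or with lists of equal length, the peak was lost. Its summit also lay in the gene model Gm49759 on the same strand.

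Towards the 3' end of Pkm, weaker sites with several readers followed. In intron 9 IGF2BP2 and YTHDC1 had pileups of 4 and 5, 984 bp or more from an annotated exon. In exon 10, IGF2BP2 had a pileup of 6, YTHDF2 of 4 and YTHDC1 of 11. At the border of intron 10 and exon 11 pileups were 5, 4 and 8 in the same order, with summits within 16 bp. YTHDC1 alone had a peak in the 3' UTR (pileup 5), 249 nt past the stop codon.

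Ldha (ENSMUSG00000063229.15, chr7:46841475-46855627, plus strand) encodes lactate dehydrogenase A, which turns pyruvate into lactate. Its 7 peaks formed 4 sites, and no site had all 3 readers. At the last exon, 8 of 8, YTHDF2 had a pileup of 10 (fold 10.0, −log10 q 14.1) and YTHDC1 one of 8 (fold 8.19, −log10 q 10.8). These summits lay 24 and 58 nt before the end of the stop codon of the main transcript, and in a 3' UTR of another transcript, and IGF2BP2 had no peak there. In exon 6, YTHDC1 had a pileup of 7 and YTHDF2 one of 5. At exon 5, IGF2BP2 had a pileup of 7 and YTHDF2 one of 5, and YTHDC1 had a pileup of 4 in exon 3. Ldha was the one member whose highest pileup came from YTHDF2 alone.

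Summits in the spliced transcripts lay mostly in coding sequence. Of 39 summits within exons of the main transcripts, 36 were in the CDS (92.3%), 3 in a 3' UTR and 0 in a 5' UTR, while the CDS made up 53.7% of the length of these transcripts and 3' UTRs 39.0%. By reader, the CDS held 14 of 14 (IGF2BP2), 8 of 8 (YTHDF2) and 14 of 17 (YTHDC1). Over all genes the CDS held 91.0% of such IGF2BP2 summits, 84.7% of YTHDF2 and 69.7% of YTHDC1 summits. The 3' UTR summits were the YTHDC1 peaks of Hk2, Pfkfb3 and Pkm. When a 3' UTR of any annotated transcript was counted, 1 IGF2BP2, 1 YTHDF2 and 5 YTHDC1 summits lay in one, the added ones being both peaks of Ldha exon 8 and both of Slc2a1 exon 6.

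Counting all annotated transcripts, an exonic summit was found for 14 of 19 peaks of IGF2BP2 (73.7%), 10 of 13 of YTHDF2 (76.9%) and 18 of 32 of YTHDC1 (56.2%). The shares over all peaks in protein-coding genes were 70.8%, 75.4% and 55.5%, close to those of the members. Intronic peaks differed more from the lists. Of 14 intronic YTHDC1 summits 8 (57.1%) belonged to peaks that reached into an annotated exon of the gene, against 17.4% over all genes. For IGF2BP2 the counts were 3 of 5, against 52.4%, and for YTHDF2 2 of 3, against 47.4%. The 8 YTHDC1 peaks were 3 of Pkm, 2 of Eno1, 2 of Aldoa and 1 of Hk2, and the difference was not tested.

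**Figure D4:**
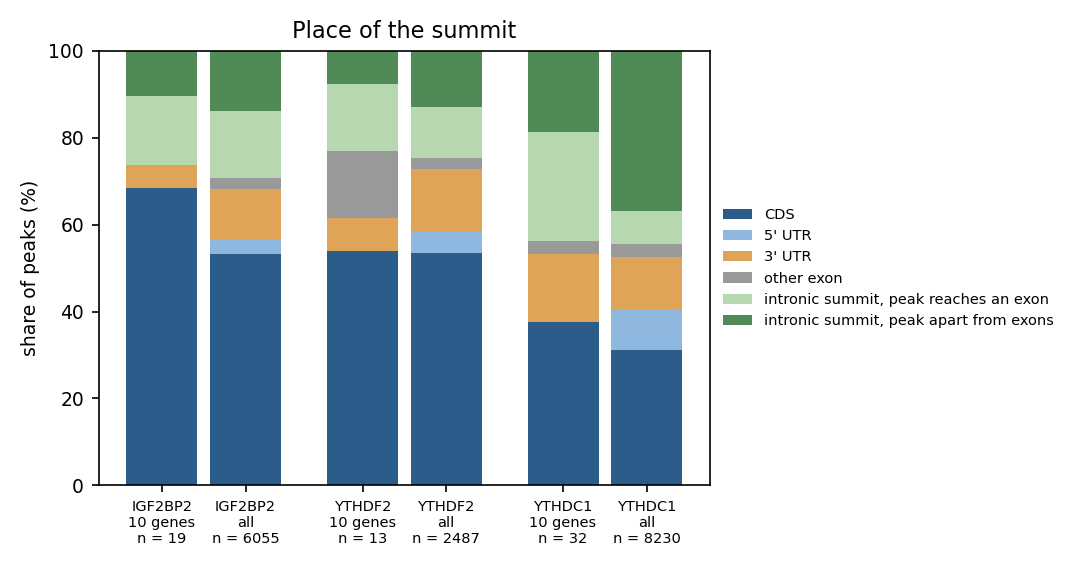
Share of peaks (%) by the place of the summit, for the 10 genes and for all peaks in protein-coding genes, in stacked bars per reader. Intronic YTHDC1 summits apart from exons take a smaller share in the 10 genes, where 8 of 14 intronic peaks reach an exon.

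Peaks in the glycolysis genes were compared with their lists for overlap with a peak of another reader. Such an overlap was found at 11 of 19 peaks for IGF2BP2 (57.9%, against 46.6% of all its peaks), 12 of 13 for YTHDF2 (92.3%, against 78.6%) and 16 of 32 for YTHDC1 (50%, against 31.1%). Of the 42 sites, 16 were of YTHDC1 alone, 8 of IGF2BP2 alone and 1 of YTHDF2 alone. Sites of several readers were 6 of YTHDF2 with YTHDC1, 5 of IGF2BP2 with YTHDC1, 1 of IGF2BP2 with YTHDF2 and 5 of all 3. These differences from the lists were not tested. Pkm held 4 of the 12 sites with 2 readers and 4 of the 5 sites with all 3. The higher share of IGF2BP2 rests on Pkm, since outside Pkm it was close to that of the whole list. For YTHDC1 the share outside Pkm was lower than with Pkm but still above that of its list.

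The m6A core letters GGAC were found near these summits at a share close to or below that of the whole lists. Windows reached 50 bases to each side of the summit in the main transcript. On the strand of the gene GGAC lay in 6 of 14 IGF2BP2 windows (42.9%), 2 of 8 YTHDF2 windows (25.0%) and 6 of 17 YTHDC1 windows (35.3%). Over all summits in main transcripts the shares were 42.5%, 41.4% and 42.2%, and over every window of this length in the 10 main transcripts 37.6%. Pkm held 8 of the 14 windows with GGAC, Pfkfb3 2, Slc2a1 2, Ldha 1 and Pfkl 1. Some of these windows overlap, as at exon 6 of Pkm and exon 6 of Slc2a1, so the same GGAC can count more than once. The same letters on the opposite strand (GTCC) lay in 5 of 14 (35.7%), 2 of 8 (25.0%) and 4 of 17 (23.5%) windows, against 22.7%, 24.9% and 27.3% over all summits and 31.5% of every window in the 10 transcripts. The longer GGACT, which contains GGAC, lay in 2, 0 and 3 of the windows, against 10.9%, 11.8% and 12.1% over all summits.

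Several of these genes share sequence with annotated pseudogenes, where the same reads could be placed. Of the 50 base runs in the main transcript, 72.2% in Eno1, 34.4% in Pkm, 16.6% in Ldha, 13.5% in Aldoa and 7.51% in Tpi1 also occurred in a transcript of another annotated gene, mostly pseudogenes. The share was 0% in Hk2, Pfkp and Slc2a1 and under 1% in Pfkl (0.0543%) and Pfkfb3 (0.610%). Of the 39 windows with an exonic summit 21 held such a run: 12 of 14 in Pkm, 4 of 6 in Ldha, 3 of 3 in Eno1, 1 of 3 in Aldoa and 1 of 3 in Pfkfb3. The other 25 of the 64 peaks have no summit in an exon of the main transcript, and their sequence was not checked for such runs. Without the 21 peaks, an alternative chosen after seeing the data, 12 IGF2BP2, 7 YTHDF2 and 24 YTHDC1 peaks were left in 6, 3 and 10 members, and 25 of these 43 peaks had no window to check. Pkm and Pfkl were then the members with all 3 readers, but only through unchecked peaks: the 2 intronic IGF2BP2 peaks of Pkm, with pileups of 4 and 5, and the YTHDF2 peak of Pfkl, with a pileup of 3. The peaks left in Eno1 (1 of IGF2BP2 and 2 of YTHDC1) were all unchecked as well. None of the 36 pseudogenes that share such runs with Pkm, Ldha, Eno1, Aldoa or Tpi1 had a peak in any list.

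Of 25 other genes of glycolysis, IGF2BP2 peaks lay in 6, YTHDF2 peaks in 3 and YTHDC1 peaks in 6, against 12.8%, 7.26% and 19.9% of all protein-coding genes. No peak of any reader lay in 18 of them, a count without such a share. Gpi1, Hk3 and Pgk1 had peaks of all 3 readers. Gpi1, which interconverts the hexose phosphates, had 10 YTHDC1 peaks with a pileup of up to 41, while IGF2BP2 reached 4 and YTHDF2 7. Hk3, the hexokinase of myeloid cells, had a shared site in exon 18 of 19 with pileups of 15, 16 and 39 for IGF2BP2, YTHDF2 and YTHDC1. Pgk1, phosphoglycerate kinase, had pileups of 2, 8 and 7 at separate places. Slc16a3, a lactate exporter, had 1 YTHDC1 peak with a pileup of 30. Gapdh had 0 peaks of any reader, and 82.5% of its 50 base runs also occurred in 218 other genes, 213 of them pseudogenes. Of these pseudogenes 2 had a peak, 1 of IGF2BP2 and 1 of YTHDF2, and the part of such copies in the absence of Gapdh peaks was not tested.

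By the strongest pileup per reader, the genes most like Pkm (37, 16 and 29) were Lrrfip1 (39, 15 and 28), Sart1 (34, 14 and 32) and Chd4 (35, 14 and 25). They were the nearest of the 1123 genes with peaks of all 3 readers, at Euclidean distances of 0.13, 0.27 and 0.30 in log2 units over 3 libraries.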

How the data were processed

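RNA bound by 3 m6A readers was immunoprecipitated from mouse bone marrow cells, with 1 library per reader and 1 input library, for which no list was analysed here. The tools HISAT2, Trim Galore and bcl2fastq 2.17 and the build GRCm38 are named, per the submitters' processing notes. The peak caller is not given in the sources used here. Each list belongs to 1 immunoprecipitate. The deposited lists give the pileup signal at the summit, its fold (ratio) over local background, −log10 p-values and q-values, and a score of about 10 times the −log10 q. Sequencing depth is unknown, so no interval that needs it is given.

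Summits were placed in GENCODE M21 genes with Python 3.11.15 and pandas 2.3.3, by a placement step tested on simulated summits. Where annotated transcripts disagreed on a summit, a 3' UTR took precedence, followed by 5' UTR, coding sequence, noncoding exon and intron. The main transcript is the longest complete coding one. Overlap of peaks means at least 1 bp. Motifs were searched within 50 bases of summits in main transcripts. Intronic windows were left out, although the plan had included them, because no genome sequence was used here. Symbols shared by several genes took the gene with most transcripts. The members and lists were chosen with earlier results of these data known. All 10 members are named, as are genes of the other lists with a peak of all 3 readers and the 3 genes nearest to the leading member. Gapdh, Slc16a3, Pfkfb4, Prtn3, Ctsg, Itgam, Csf1r, Myb, Col1a2, Kit, Pecam1, Tfrc and Hk1 were named after their values were seen.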

Additional observations from a re-analysis of the deposited data

How the results depend on the processing

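Counts in the 10 genes rest on many weak peaks, and 49 of 117 recomputed counts moved by more than 1.5 times, while 68 did not. All 19 counts stayed within 1.5 times with the peak midpoint in place of the summit. The same held for the exonic counts with the main transcript alone, and for the overlaps with summits at most 50 bp apart or a stricter mutual overlap. Values are given in the order IGF2BP2, YTHDF2 and YTHDC1. A fold of at least 5 and a pileup of at least 5 gave the same counts: 9, 6 and 19 peaks, 3 and 2 members (first 2 readers), 7, 6 and 9 exonic summits, 6, 6 and 8 overlaps, 2 YTHDC1 windows with GGAC, 2 other glycolysis genes for IGF2BP2 and 2 members with all 3 readers. At a −log10 q of at least 5, overlaps fell to 7 for YTHDF2 and 10 for YTHDC1. At equal list length (2834 peaks each), IGF2BP2 kept 6 peaks in 2 members (Pkm and Pfkfb3), 5 exonic summits, 3 overlaps and 1 other glycolysis gene, YTHDC1 kept 7 peaks in 4 members (Pkm, Aldoa, Hk2 and Pfkfb3), 5 exonic summits, 5 overlaps and 1 window with GGAC, and YTHDF2 had 5 overlaps. Pkm was then the 1 member in all 3 lists, and 6.01%, 7.26% and 7.93% of protein-coding genes had a peak. GGAC lay in 1 YTHDF2 and 3 YTHDC1 windows cut to 51 bases, and in 10 IGF2BP2 and 5 YTHDF2 windows of about 2 times the length. An alternative chosen after seeing the data left out windows shared with other genes: 12 IGF2BP2 and 7 YTHDF2 peaks and 2 members with all 3 readers remained, but 25 of the 43 peaks left, among them those that keep both members, had no window to check. Fewer peaks are counted under each of these limits by construction. The share of all protein-coding genes with a peak was recomputed at equal list length alone. No paired analysis was possible because each reader has 1 library. Depth is unknown, so a gene without a peak may still be bound.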

Other observations

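Branches off glycolysis also had peaks. Of 21 genes of the pentose phosphate path, glycogen, serine and glycerol phosphate metabolism and pyruvate entry into mitochondria, IGF2BP2 peaks lay in 7, YTHDF2 peaks in 4 and YTHDC1 peaks in 8, against 12.8%, 7.26% and 19.9% of all protein-coding genes. Pgd and Pygl had peaks of all 3 readers, against 5.1% of all protein-coding genes. Pgd, 6-phosphogluconate dehydrogenase, had a shared site in its 3' UTR with pileups of 8 (IGF2BP2), 13 (YTHDF2) and 26 (YTHDC1). Pygl, glycogen phosphorylase of liver and blood cells, had a shared site in exon 17 of 20 with pileups of 8, 6 and 38 in the same order. Pfkfb4, the sister gene of Pfkfb3, had 3 IGF2BP2 and 2 YTHDC1 peaks, and all 5 lay in intron 9, with pileups from 5 to 8. Hk1 had 2 IGF2BP2 and 3 YTHDC1 peaks with pileups from 3 to 5.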
